A study of Homo sapiens with 9 samples.

Results

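The RNA of 10 genes was examined, out of the 60675 genes counted in each library. They encode the core of Polycomb repressive complex 2 (PRC2), namely EZH2, EED and SUZ12, the DNA methyltransferases DNMT1, DNMT3A and DNMT3B, the methylcytosine dioxygenases TET1, TET2 and TET3, and UHRF1, the partner of DNMT1. The genes were listed by name and function, by a choice made with earlier results of these data known. All 10 were found in the files and all 10 passed the filter on low counts.

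The study used shRNA against METTL3, the catalytic subunit of the complex that writes N6-methyladenosine (m6A) on mRNA, in LNCaP:C4-2 cells. This prostate cancer line was derived from LNCaP, grows without androgen and still responds to enzalutamide. Total RNA from 3 groups of 3 libraries was sequenced: a non-targeting shScramble control, shMETTL3 guide 2 and shMETTL3 guide 1. All groups, the control included, carried a doxycycline-inducible pLKO.1-puro construct delivered by lentivirus packaged in HEK293T cells, were selected with puromycin, were grown in phenol red-free medium with charcoal-stripped serum, and according to the protocol received 1 μg/ml doxycycline for 6 days, although the sample titles name a vehicle. Each group is thus a stably transduced population of one cell line. Nothing in the labels says that the 3 libraries of a group came from separate cultures, so p-values measure the spread between these libraries, which may be technical.

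PRC2 places methyl groups on lysine 27 of histone H3, a mark of silenced developmental genes. EZH2 is the catalytic subunit, EED binds the mark and SUZ12 holds the complex together, while EZH1 can replace EZH2. DNMT3A and DNMT3B set new DNA methylation, and DNMT1 copies it at the replication fork, where UHRF1 binds the hemimethylated CpG and recruits it. The TET enzymes oxidise 5-methylcytosine as the first step of its removal. EZH2 overexpression and promoter hypermethylation are well-known features of advanced prostate cancer.

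Total counts lay between 21899501 and 30897639 per library. METTL3 had 922, 1010 and 753 counts in shScramble, 382, 415 and 349 with guide 2, and 837, 837 and 886 with guide 1. Its log2 fold change was -0.95 ± 0.0687 (SE) with guide 2 (adjusted p = 2.97e-12, edgeR's quasi-likelihood test, Benjamini-Hochberg) and -0.08 ± 0.0633 in the libraries labelled guide 1 (adjusted p = 0.251), so METTL3 RNA was lowered only with guide 2. The libraries labelled guide 1 thus showed no lowered RNA of the gene that their label names as target, and the reason was not tested. Below, guide 1 names the label and not a lowered METTL3 level. The 11 luminal markers of the prostate, among them KLK3 and HOXB13, had a summed level of 3069 to 3130 CPM (scaled counts divided by library size) in shScramble, 3541 to 3679 CPM with guide 2 and 1583 to 1641 CPM in the libraries labelled guide 1. A list of 8 genes known from HEK293 cells (NEFL, NEFM, NEFH, INA, PAX2, EYA1, LIN28B and VIM), written after the data were seen, summed to 34.4 to 36.5 CPM in shScramble, 4.98 to 5.77 CPM with guide 2 and 294 to 337 CPM in the libraries labelled guide 1. Of the 7 of these genes tested, 7 fell with guide 2 and 7 rose in the libraries labelled guide 1. Over all tested genes, 20.4% fell with guide 2 and 21.2% rose in the libraries labelled guide 1, by the rule given below. Since the list was written after the data were seen, its counts and medians are not an independent result. Basal markers summed to 51.0 to 60.5 CPM in shScramble, 66.3 to 69.0 CPM with guide 2 and 35.5 to 40.9 CPM with guide 1. Stromal markers summed to 43.5 to 46.7 CPM, 37.3 to 40.6 CPM and 19.6 to 26.2 CPM. In each of these lists 2 of 6 genes passed the filter on low counts. Blood and endothelial markers summed to at most 2.07 and 3.49 CPM in any library. Among the genes of these 4 lists, KRT5, TP63, CD3E, HBB, PECAM1 and DCN were at or near 0. In bulk RNA, fewer cells of a type and less RNA per cell cannot be told apart. The part of these differences in the results below was not tested. A fit without the libraries labelled guide 1 cannot test it, since shScramble and guide 2 themselves differ in these lists.

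The E2F family of transcription factors drives replication genes, and the letters it is known to bind were looked for in the RefSeq promoter windows (GRCh38.p14, 250 bases before to 50 after the start site). All 10 genes had at least one window. The 4 spellings TTTCCCGC, TTTCGCGC, TTTGCCGC and TTTGGCGC were sought on both strands. They occurred in 3.31% of 35116 windows and in a window of 6.22% of the 12723 tested genes with one. Windows of 4 of the 10 genes held them, EZH2, SUZ12, DNMT1 and UHRF1, and UHRF1 held a match in each of 2 alternative windows. The 30 bases around each match are shown for all 4 genes. Each is printed on the strand of its gene with the matching letters in capitals, and in DNMT1 and the first UHRF1 window the capitals are the reverse complement of a spelling.
EZH2, chr7:148884272-148884301, minus strand: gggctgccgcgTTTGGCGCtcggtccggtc
SUZ12, chr17:31936807-31936836, plus strand: cgacccctaatTTTCCCGCgaattcagttc
DNMT1, chr19:10194937-10194966, minus strand: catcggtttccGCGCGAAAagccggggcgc
UHRF1 first window, chr19:4909476-4909505, plus strand: gccgagttttcGCGGGAAAaaaatcagagc
UHRF1 second window, chr19:4909973-4910002, plus strand: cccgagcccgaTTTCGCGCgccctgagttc
These matches are a description of the letters and not evidence of binding. EED, DNMT3A, DNMT3B and the 3 TET genes held none of these spellings in their windows. EZH1, which is not one of the 10 genes, held TTTGCCGC on the opposite strand.

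With guide 2, the RNA of the maintenance pair rose, and that of the other 8 genes stayed within 1.5-fold of shScramble. A gene was called when its adjusted p was under 0.05 and its fold change at least 1.5. By this rule 2 of the 10 genes were called, DNMT1 and UHRF1, both higher, beside 29.3% of all 19278 tested genes called in either direction, 8.85% higher and 20.4% lower. By adjusted p alone 8 of the 10 passed, beside 61.8% of all genes, and 8 did not overlap between the groups, beside 66.5%. None of these counts stands far from the share of all genes. In a fit of the shScramble and guide 2 libraries alone, 2 of the 10 were again called, both higher. Scaling by library size alone moved the median log2 fold change of all genes from -0.04 to -0.19 with guide 2. Raised calls then went from 1706 of 5645 to 1012 of 5877, and none of the 10 genes changed direction with guide 2.

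**Figure D1:**
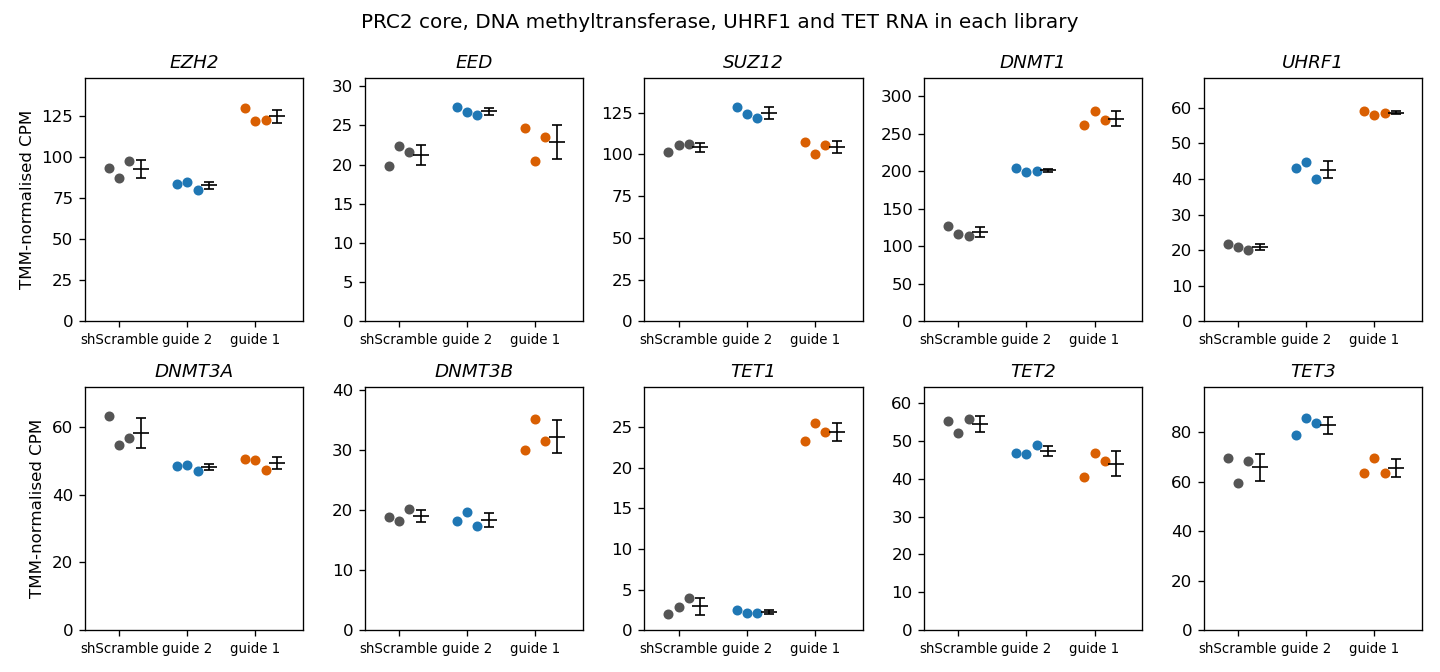
TMM-normalised CPM (y axes, from 0) of each of the 10 genes in each library of shScramble, guide 2 and guide 1. Points are single libraries and black bars are the mean and SD of 3. DNMT1 and UHRF1 form 3 separate steps, whereas TET1 and DNMT3B stand apart in the libraries labelled guide 1.

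In the libraries labelled guide 1, 4 of the 10 genes were called, all higher: DNMT1, UHRF1, DNMT3B and TET1. The background was 37.7% of all genes in either direction, 21.2% higher and 16.5% lower, so the total of 4 is close to the share of all genes. By adjusted p alone 7 of the 10 passed, beside 68.4% of all genes, and 7 did not overlap between the groups, beside 71.0%. Both comparisons use the same shScramble libraries, so they are not independent, and their values are given side by side below. The fold changes of all 10 genes are shown in the plot of change against shScramble.

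**Figure D2:**
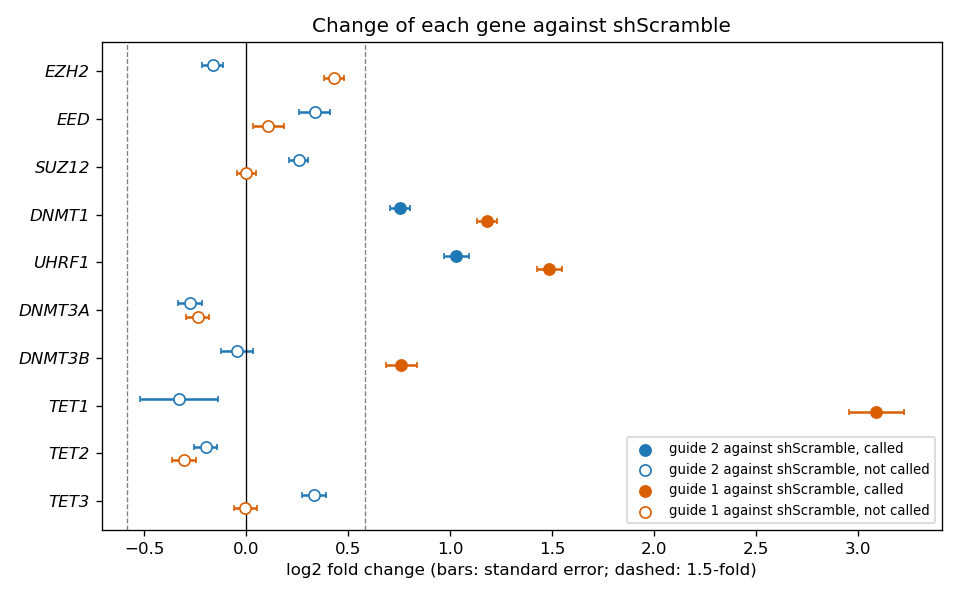
Log2 fold change (x axis) of each of the 10 genes against shScramble with guide 2 (blue) and in the libraries labelled guide 1 (orange), with the standard error as bars. Filled points were called and dashed lines mark 1.5-fold. DNMT1 and UHRF1 are filled in both comparisons, DNMT3B and TET1 with guide 1 alone.

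Among the core subunits of PRC2, none was called against shScramble. EZH2 (ENSG00000106462, chromosome 7 from 148807383 to 148884321, minus strand, GRCh38) had 2886, 2775 and 2228 counts in shScramble, 1925, 2120 and 1765 with guide 2, and 3688, 3387 and 3670 with guide 1. After scaling, the mean was 92.7 ± 5.27 CPM (SD, n = 3) in shScramble, 82.7 ± 2.36 CPM with guide 2 and 125 ± 4.14 CPM with guide 1. The 3 groups did not overlap, with guide 2 lowest and guide 1 highest. On the log2 scale EZH2 differed from shScramble by -0.16 ± 0.0498 with guide 2 (adjusted p = 0.00592, edgeR's quasi-likelihood test) and 0.43 ± 0.0486 with guide 1 (adjusted p = 9.29e-09), both under 1.5-fold.

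EED (ENSG00000074266, chromosome 11 from 86244544 to 86278813, plus strand) is the subunit that reads the methylated lysine. It had 19.8, 22.4 and 21.6 CPM in shScramble, 27.3, 26.7 and 26.4 CPM with guide 2, and 24.6, 20.4 and 23.5 CPM with guide 1. All guide 2 libraries lay above the others, while guide 1 overlapped shScramble. EED shares 66 exon bases (0.941%) with an overlapping gene that had 0 counts in every library. SUZ12, the scaffold subunit (ENSG00000178691, chromosome 17 from 31937018 to 32001045, plus strand), had 101, 105 and 106 CPM in shScramble, 129, 124 and 122 CPM with guide 2, and 107, 100 and 106 CPM with guide 1. It showed the same order, with guide 2 apart. With guide 2 the log2 fold change was 0.34 ± 0.0755 for EED (adjusted p = 3.79e-04, edgeR's quasi-likelihood test) and 0.26 ± 0.0459 for SUZ12 (adjusted p = 2.17e-05). With guide 1 it was 0.11 for EED (adjusted p = 0.202, edgeR) and 0.00 for SUZ12 (adjusted p = 0.991), and the sign of the SUZ12 value changed with the scaling. The core subunits thus did not move together with guide 2: EZH2 had a negative log2 fold change and its partners positive ones. The pseudogene SUZ12P1 had 504, 590 and 420 counts in shScramble, 350, 325 and 285 with guide 2, and 557, 493 and 493 with guide 1. How reads shared with SUZ12 were counted is not known.

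EZH1, the alternative catalytic subunit, is not one of the 10 genes but sets the EZH2 values in context. It had 39.8, 40.2 and 39.3 CPM in shScramble, 28.8, 27.8 and 29.6 CPM with guide 2, and 40.0, 41.2 and 38.9 CPM with guide 1. Guide 2 alone lay apart, with a log2 fold change of -0.47 ± 0.0587 (adjusted p = 1.04e-07, edgeR's quasi-likelihood test), which passed 1.5-fold only when libraries were scaled by size alone (-0.62). Within each library, and divided by exon length, the log2 ratio of EZH2 to EZH1 was 1.85 ± 0.0987 (SD, n = 3) in shScramble, 2.15 ± 0.0846 with guide 2 and 2.27 ± 0.0667 with guide 1. It was 0.30 higher with guide 2 and 0.42 higher with guide 1, with no overlap with shScramble (two-sided exact permutation p = 0.1 each, the smallest that 3 against 3 allows, and 0.129 after Benjamini-Hochberg adjustment over 9 ratio tests). The ratio was higher with guide 2 although EZH2 itself was lower, since the EZH1 value was lower still.

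DNMT1 and UHRF1 rose in both comparisons. DNMT1, the maintenance methyltransferase (ENSG00000130816, chromosome 19 from 10133345 to 10231286, minus strand), had 3932, 3702 and 2596 counts in shScramble, 4705, 5006 and 4407 with guide 2, and 7440, 7795 and 8026 with guide 1. The means were 119 ± 7.16 CPM, 201 ± 2.47 CPM and 270 ± 9.80 CPM (SD, n = 3). No library of one group overlapped another group. Its log2 fold change was 0.76 ± 0.0477 with guide 2 (adjusted p = 1.82e-13, edgeR's quasi-likelihood test) and 1.18 ± 0.0476 with guide 1 (adjusted p = 2.42e-18). DNMT1 shares 69 exon bases (0.704%) with S1PR2.

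UHRF1, which brings DNMT1 to newly copied DNA (ENSG00000276043, chromosome 19 from 4903080 to 4962154, plus strand), had 670, 661 and 460 counts in shScramble, 991, 1124 and 884 with guide 2, and 1680, 1614 and 1751 with guide 1. The means were 20.9 ± 0.767 CPM, 42.6 ± 2.39 CPM and 58.6 ± 0.442 CPM (SD, n = 3), again without overlap. Its log2 fold change was 1.03 ± 0.0612 with guide 2 (adjusted p = 5.41e-14, edgeR's quasi-likelihood test) and 1.49 ± 0.0594 with guide 1 (adjusted p = 2.02e-18). Relative to DNMT1 in the same library and per length, UHRF1 had a log2 ratio of -1.58 ± 0.0363 in shScramble, -1.31 ± 0.0815 with guide 2 and -1.28 ± 0.063 with guide 1. The ratio was 0.27 and 0.31 higher than in shScramble with guide 2 and guide 1, without overlap (two-sided exact permutation p = 0.1 each, the smallest possible). The guides themselves overlapped in this ratio (difference -0.03, two-sided exact permutation p = 0.6).

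These rises were set beside a list of 25 replication and E2F-driven genes, such as the MCM helicase subunits and cyclin E. With guide 2, 20 of these 25 rose and 0 fell, with a median log2 fold change of 0.96, while the median of all genes was -0.04. With guide 1, 22 rose and 0 fell, with a median of 1.41. Over all tested genes, 8.85% rose with guide 2 and 21.2% with guide 1. The values ranged from 0.03 to 1.65 with guide 2 and from 0.23 to 2.26 with guide 1. DNMT1 exceeded 8 of the 25 with guide 2 and 10 with guide 1, and UHRF1 exceeded 14 with each, so both lay inside the range of the list. EZH2 lay below all 25 with guide 2, as did DNMT3A, DNMT3B, TET1 and TET2. With guide 1 EZH2 lay above 2 of them, while EED, SUZ12, DNMT3A, TET2 and TET3 lay below all 25. TET1 with guide 1 lay above all 25. Of the 21 listed genes with a promoter window, 14 held one of the spellings.

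**Figure D3:**
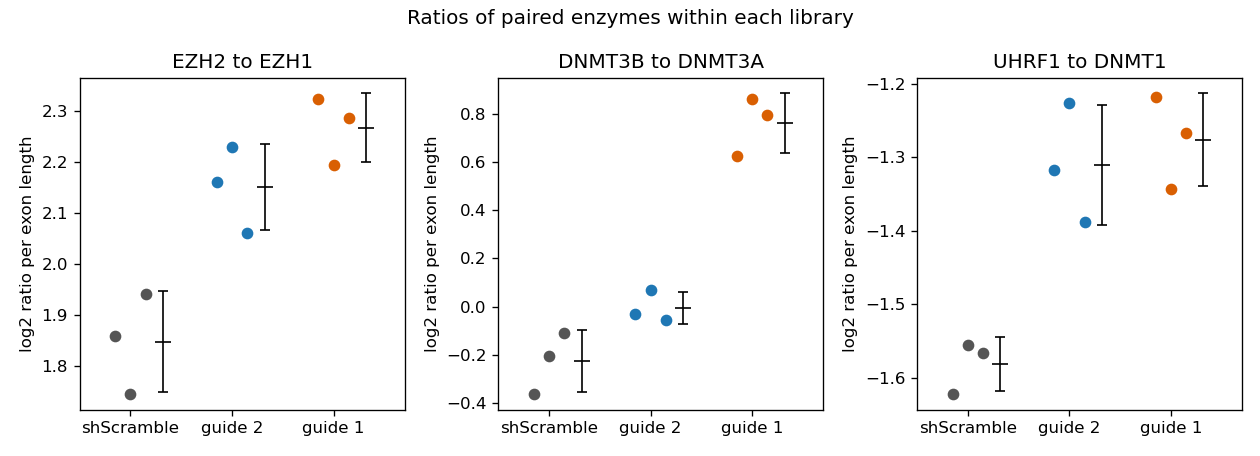
Log2 ratio per exon length (y axes, which do not start at 0) of EZH2 to EZH1, DNMT3B to DNMT3A and UHRF1 to DNMT1 in each library of the 3 groups. Points are single libraries and black bars are the mean and SD of 3. The shScramble libraries lie lowest in all panels, and DNMT3B to DNMT3A separates the libraries labelled guide 1 from both other groups.

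The de novo enzymes behaved differently from each other. DNMT3A (ENSG00000119772, chromosome 2 from 25227855 to 25342590, minus strand) had 63.1, 54.6 and 56.6 CPM in shScramble, 48.4, 48.7 and 47.0 CPM with guide 2, and 50.6, 50.3 and 47.3 CPM with guide 1. All guide 2 libraries, and all libraries labelled guide 1, lay below every shScramble library. Its log2 fold change was -0.27 ± 0.0574 with guide 2 (adjusted p = 1.68e-04, edgeR's quasi-likelihood test) and -0.24 ± 0.0565 with guide 1 (adjusted p = 5.75e-04), both under 1.5-fold.

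DNMT3B (ENSG00000088305, chromosome 20 from 32762385 to 32809356, plus strand) had 583, 580 and 461 counts in shScramble, 420, 493 and 384 with guide 2, and 855, 979 and 945 with guide 1. The means were 19.1 ± 1.01 CPM, 18.4 ± 1.14 CPM and 32.3 ± 2.68 CPM (SD, n = 3). Guide 2 overlapped shScramble, and guide 1 lay above both. The log2 fold change was -0.05 ± 0.0793 with guide 2 (adjusted p = 0.632, edgeR's quasi-likelihood test) and 0.76 ± 0.0741 with guide 1 (adjusted p = 4.84e-10). The log2 ratio of DNMT3B to DNMT3A per length was -0.23 ± 0.128 in shScramble, -0.01 ± 0.0655 with guide 2 and 0.76 ± 0.123 with guide 1. It was 0.22 higher with guide 2 and 0.99 higher with guide 1 than in shScramble, and none of the groups overlapped (two-sided exact permutation p = 0.1 each, the smallest possible). Of the RNA of both de novo enzymes per length, DNMT3B made up 46.1% in shScramble, 49.9% with guide 2 and 62.9% with guide 1.

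TET1 showed the widest range of the 10 genes, and its rise was seen in the libraries labelled guide 1. It lies on chromosome 10 from 68560656 to 68694482, plus strand (ENSG00000138336), and had 62, 90 and 91 counts in shScramble, 59, 54 and 47 with guide 2, and 664, 708 and 728 with guide 1. The means were 2.94 ± 0.995 CPM, 2.28 ± 0.240 CPM and 24.4 ± 1.09 CPM (SD, n = 3). Guide 2 overlapped shScramble. The log2 fold change was -0.33 ± 0.192 with guide 2 (adjusted p = 0.141, edgeR's quasi-likelihood test) and 3.09 ± 0.135 with guide 1 (adjusted p = 1.82e-16). Leaving out single libraries moved the guide 2 value between -0.55 and -0.09. The genes known from HEK293 cells moved in the same comparison by a median of 3.24 with guide 1. The luminal markers moved by a median of -0.74 with guide 1, with 6 of 11 lowered, beside 16.5% of all tested genes. With guide 2, 2 of the 11 rose and 1 fell, beside 8.85% and 20.4%. The part of both lists in the TET1 and DNMT3B values was not tested.

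TET2 (ENSG00000168769, chromosome 4 from 105145875 to 105279816, plus strand) had 55.3, 52.0 and 55.8 CPM in shScramble, 46.8, 46.4 and 48.8 CPM with guide 2, and 40.4, 46.8 and 44.7 CPM with guide 1. Guide 2 and the libraries labelled guide 1 lay below shScramble and overlapped each other. The log2 fold change was -0.20 ± 0.0579 with guide 2 (adjusted p = 0.00424, edgeR's quasi-likelihood test) and -0.30 ± 0.0574 with guide 1 (adjusted p = 3.35e-05). TET3 (ENSG00000187605, chromosome 2 from 73986404 to 74108176, plus strand) had 69.4, 59.3 and 68.4 CPM in shScramble, 78.9, 85.6 and 83.5 CPM with guide 2, and 63.4, 69.4 and 63.6 CPM with guide 1. Guide 2 lay above both other groups, with a log2 fold change of 0.33 ± 0.0578 (adjusted p = 1.57e-05, edgeR), and guide 1 overlapped shScramble (-0.00, adjusted p = 0.96). Neither gene passed 1.5-fold. Of the TET RNA per length, TET1 made up 3.53% in shScramble, 2.50% with guide 2 and 24.7% with guide 1. The share of TET2 was 36.8%, 29.2% and 25.1%, and that of TET3 was 59.6%, 68.3% and 50.2%.

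The guide 2 libraries were also compared directly with those labelled guide 1, a difference between libraries that cannot be assigned to the shRNAs, since METTL3 was not lowered in the latter. Of the 10 genes, 3 were called, all lower with guide 2, beside 47.3% of all genes in either direction, 19.1% higher and 28.2% lower: TET1 (log2 difference -3.42 ± 0.145, adjusted p = 6.03e-17, edgeR's quasi-likelihood test), DNMT3B (-0.81 ± 0.0758, adjusted p = 1.68e-10) and EZH2 (-0.59 ± 0.0493, adjusted p = 1.35e-11). By adjusted p alone 8 passed, beside 74.6% of all genes, and 8 did not overlap, beside 75.8%. EZH2 lay close to the 1.5-fold limit, and its call was lost without guide 2 replicate 3 (-0.56) or guide 1 replicate 1 (-0.57). DNMT1 (-0.43, adjusted p = 3.84e-09, edgeR) and UHRF1 (-0.46, adjusted p = 3.32e-08) were also lower with guide 2 than with guide 1, by less than 1.5-fold. EED, SUZ12 and TET3 were higher with guide 2, by 0.23 to 0.34 on the log2 scale. DNMT3A (-0.04) and TET2 (0.11) missed the threshold.

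Levels can be compared between genes only per length. In shScramble the highest RPKM was that of EZH2 at 20.5, followed by SUZ12 at 15.9 and DNMT1 at 12.2 RPKM. TET3 (5.35 RPKM) and DNMT3A (4.83 RPKM) overlapped, as did DNMT3B (4.12 RPKM) and UHRF1 (4.05 RPKM), and TET2 (3.30 RPKM) and EED (3.03 RPKM). TET1 was lowest at 0.316 RPKM. With guide 2 the order began with DNMT1 at 20.5 RPKM, ahead of SUZ12 at 19.1 and EZH2 at 18.3 RPKM, which overlapped each other, and UHRF1 came next at 8.28 RPKM. With guide 1, EZH2 and DNMT1 overlapped at 27.6 RPKM each, SUZ12 came next, then UHRF1 at 11.4 RPKM, and TET1 at 2.63 RPKM overlapped TET2 at 2.67 RPKM.

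The partners of the 10 genes were described from lists of the same pathways. The counts in all paragraphs on partners stand beside the shares of all tested genes. These were 8.85% higher and 20.4% lower with guide 2, and 21.2% higher and 16.5% lower with guide 1. The lists are short and their counts carry no test. Among 10 tested partners of PRC2, 2 rose and 0 fell with guide 2, with a median log2 fold change of 0.16, and 4 rose and 0 fell with guide 1, with a median of 0.25. EPOP, a PRC2 accessory protein, had a log2 fold change of 0.97 with guide 2 and 0.02 with guide 1. RBBP7, a histone-binding subunit, rose by 0.72 and 1.49, and MTF2, which directs PRC2 to CpG islands, had -0.05 with guide 2 and rose by 0.98 with guide 1. Of 21 subunits of PRC1, the complex that ubiquitinates histone H2A, 0 rose and 1 fell with guide 2 (median 0.04), and 3 rose and 1 fell with guide 1 (median 0.11). PCGF6 rose by 1.54 and RNF2, the catalytic subunit, by 0.82 with guide 1. Of 10 enzymes that oppose Polycomb, 0 were called with guide 2. With guide 1 the H3K36 methyltransferase NSD2 rose by 0.59, a call lost in 4 alternatives, and the H3K27 demethylase KDM6A fell by 0.63 on the log2 scale.

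Among 8 tested partners of DNA methylation, 3 rose and 0 fell with guide 2 (median 0.19) and 4 rose and 0 fell with guide 1 (median 0.58). PCNA, the replication clamp and also in the replication list, rose by 1.17 with guide 2 and 1.32 with guide 1. The chromatin remodeller HELLS rose by 0.61 and 2.17 and its activator CDCA7 by 1.03 and 3.24, with guide 2 and guide 1. The HELLS call with guide 2 was lost in 4 alternatives. Of 8 readers of methylated CpG, 0 were called in either comparison, with medians of -0.02 and 0.03. Of 14 tested genes of the methyl donor cycle, which makes S-adenosylmethionine, 5 rose and 0 fell with guide 2 and 5 rose and 2 fell with guide 1. The folate enzyme MTHFD1 rose by 0.67 and 1.37 and thymidylate synthase TYMS, which is also in the replication list, by 0.99 and 0.90. SHMT1 rose by 0.72 with guide 2, MTAP had 0.60 (a call lost in 4 alternatives) and 1.13, and the methionine cycle enzymes GNMT and MAT1A fell by 0.95 and 0.93 on the log2 scale with guide 1.

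Among 11 tested partners of demethylation, 2 rose and 4 fell with guide 2 (median -0.21) and 2 rose and 2 fell with guide 1 (median -0.11). OGT, the sugar transferase that binds TET2 and TET3, had a mean of 669 CPM in shScramble, 234 CPM with guide 2 and 641 CPM with guide 1, a log2 fold change of -1.51 with guide 2 (adjusted p = 4.40e-19, edgeR's quasi-likelihood test) and -0.06 with guide 1. TDG, the glycosylase that removes oxidised cytosine, rose by 0.61 with guide 2, where 3 alternatives lost the call. IDH2, which makes 2-oxoglutarate, the cosubstrate of the TET enzymes, rose by 0.96 with guide 2, and IDH1 fell by 0.84 with guide 1. GADD45A fell by 1.09 with guide 2 and GADD45B rose by 0.68 with guide 1. CXXC4, a TET2-binding protein of low level here, had -1.98 with guide 2 and 1.68 with guide 1, and CXXC5 fell by 1.02 with guide 1.

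**Figure D4:**
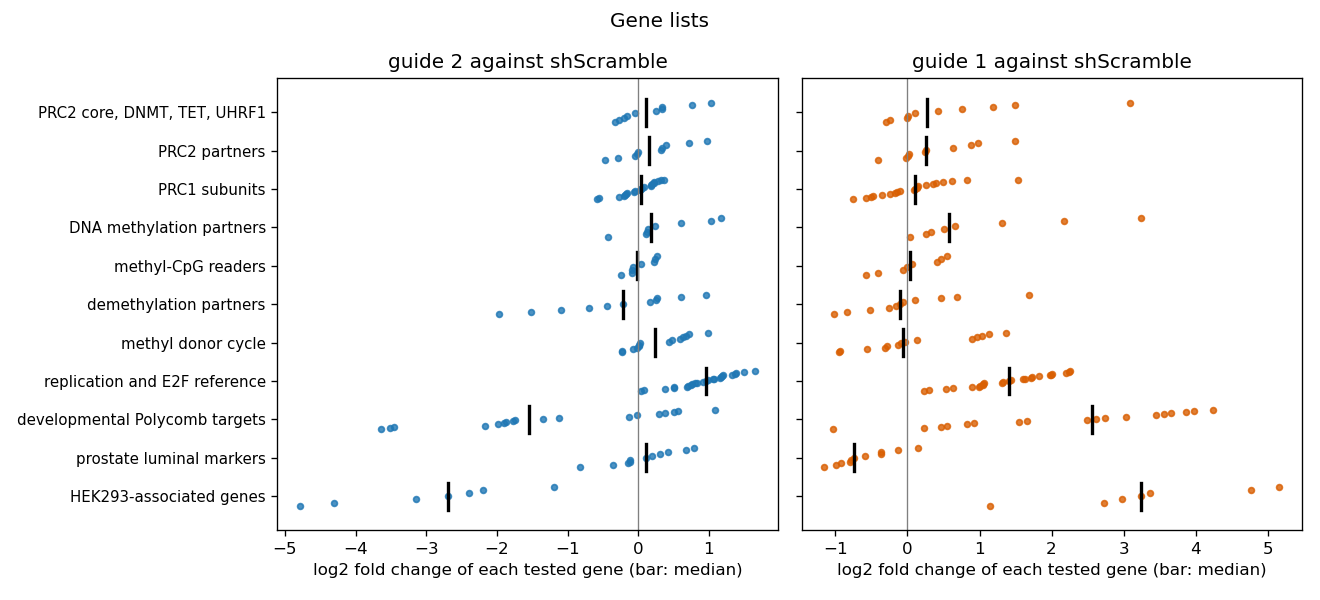
Log2 fold change (x axes) of every tested gene of each list against shScramble, with guide 2 on the left and guide 1 on the right. Points are genes and black bars are list medians. The replication and E2F list lies to the right in both panels, whereas developmental Polycomb targets and genes known from HEK293 cells lie to the left with guide 2 and to the right with guide 1.

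Genes on which these enzymes are known to act were counted as well. Over all tested genes, 8.85% rose and 20.4% fell with guide 2, and 21.2% rose and 16.5% fell with guide 1. The filter used all libraries, so a gene high in a single group could pass it. Of the 24 listed developmental Polycomb targets, 7 had 3 counts or fewer in every shScramble library. With guide 2 these were 9, and in the libraries labelled guide 1 they were 5. Of 18 tested developmental Polycomb targets, 1 rose and 10 fell with guide 2, with a median of -1.55, or -1.13 with groups at 3 counts or fewer set to 3 counts per library, and 14 rose and 1 fell with guide 1, with a median of 2.56. Their summed level was 64.4 to 65.6 CPM in shScramble, 60.3 to 64.6 CPM with guide 2 and 256 to 265 CPM with guide 1. Of 10 tested genes known as EZH2-repressed, 2 rose and 3 fell with guide 2 and 6 rose and 1 fell with guide 1. Of 13 tested genes with promoters known to be methylated in prostate cancer, 2 rose and 5 fell with guide 2 and 8 rose and 1 fell with guide 1. The summed level of the EZH2-repressed genes was 995 to 1076 CPM in shScramble, 920 to 977 CPM with guide 2 and 892 to 935 CPM with guide 1. That of the genes with methylated promoters was 143 to 150 CPM, 159 to 169 CPM and 336 to 356 CPM. The medians of the genes known from HEK293 cells were -2.70 with guide 2 and 3.24 with guide 1, and their part in these counts was not tested. The median log2 fold change of the EZH2-repressed genes was -0.33 with guide 2 and 1.04 with guide 1. That of the genes with methylated promoters was -0.50 and 2.10. Sums and medians differed in direction in some cases, since a sum is carried by its most abundant genes. With guide 2 the sum for methylated promoters was higher than in shScramble although the median was negative. With guide 1 the sum for EZH2-repressed genes was lower although the median was positive.

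The sequence GGACT, the commonest form of the m6A motif, was counted in the reference transcript of each gene (GENCODE, GRCh38). The median over 18006 tested genes was 0.937 per kb. UHRF1 had 1.80 per kb (percentile 86.0), DNMT3A 1.27, DNMT3B 1.15, EZH2 1.13, DNMT1 0.948 and TET1 0.936 per kb. TET3 had 0.746 and TET2 0.521 per kb, and EED and SUZ12 had 0. These are counts of letters and say nothing of methylation of the RNA. The longest stretch that an shRNA target shared with a transcript of the 10 genes was 9 of 21 bases.

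The genes whose log2 level was most like that of the 3 widest-ranging members were found over all 9 libraries and 15423 genes. For TET1 they were PLCG2 (Pearson's r = 0.997), LRRC8C (0.997) and ARMCX4 (0.996), for UHRF1 DPYSL3 (0.997), NAA15 (0.997) and CNTNAP2 (0.997), and for DNMT1 SLC19A1 (0.997), MYBL2 (0.997) and DROSHA (0.996). These values describe 9 libraries that fall into 3 groups and carry no test.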

How the data were processed

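Groups of 3 RNA-seq libraries each were taken from the sample titles. After trimming, the authors mapped reads to GRCh38 using STAR, counted them per gene using featureCounts, and deposited the raw count of each gene, neither normalised nor pooled. Tool names are from the submitters' processing notes, and the strand setting is not given in the sources used here. The handling of reads that fit several genes or places is not given either. How reads of overlapping genes and near-identical copies were counted is therefore not known. Of 60675 genes, 56558 (93.2%) were given a symbol.

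Counts were scaled by TMM in edgeR 4.0.16 (R 4.3.3). Low genes were removed with filterByExpr (minimum count 10, minimum total 15), which left 19278. The quasi-likelihood F test was fitted to all 9 libraries with a coefficient per group and no covariates. Calls needed an adjusted p (Benjamini-Hochberg over all genes tested) below 0.05 together with a change of 1.5-fold or more. Errors of log2 fold changes are standard errors of this fit. RPKM used the exon length in the files. Ratios within a library were taken on counts plus 0.5 and tested with two-sided exact permutation tests (scipy 1.17.1). A group with 3 counts or fewer in every library was treated as at the floor, and this floor covers counting error only. The standard errors and SDs include the spread between libraries.

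The members and gene lists were chosen with earlier results of these data known, so no test over a list was run. Partners were named by a rule: in each pathway list, the called genes with the 3 largest rises and falls with guide 2 and the 2 largest with guide 1, among genes whose mean reached 1 CPM. Some genes that the rule names are not reported here. The scripts were tested on simulated data. The alternatives were DESeq2 1.42.0, its size factors, library size alone, no filter, a mean of 1 CPM or more, a fit of the 6 libraries in question, a replicate block, each library left out, adjusted p alone, and glmTreat. Promoter and transcript sequences are from RefSeq (GRCh38.p14) and GENCODE.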

Additional observations from a re-analysis of the deposited data

Results flagged for a closer look

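The guide 2 libraries differed from those labelled guide 1 by the direct test for 3 of the 10 genes and for the targeted gene, which the latter did not show as lowered against shScramble (edgeR's quasi-likelihood test, guide 2 minus guide 1 on the log2 scale). The difference was -3.42 for TET1, -0.81 for DNMT3B, -0.59 for EZH2 and -0.86 for METTL3. In each case all 3 guide 2 libraries lay below all 3 libraries labelled guide 1. By the same rule 47.3% of all tested genes differed, so such a difference is common in these libraries.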

How the results depend on the processing

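The calls of DNMT1 and UHRF1 with guide 2, and of DNMT1, UHRF1, DNMT3B and TET1 with guide 1, were kept in every alternative run. With adjusted p alone the calls among the 10 genes came to 8, 7 and 8, and over all genes to 11910, 13188 and 14386, for guide 2, guide 1 and the direct comparison, against 5645, 7265 and 9125. glmTreat left 3261 genes with guide 2. Leaving out single libraries gave 5314 to 5789, 7040 to 7575 and 9074 to 9433 genes, and 2 to 3 of the 10 genes in the direct comparison. The EZH2 call there (-0.59) was lost with no filter (-0.57) and under glmTreat, and library size alone added UHRF1.

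Signs turned only for values near 0. With library size alone these were RNF2 (-0.0902) and MAT1A (-0.118) with guide 2, SUZ12 (-0.0128) and EZH1 (-0.00326) with guide 1, and TET2 (-0.0313) between the guides. The same scaling took RBBP7, HELLS, TDG, MTHFD1, SHMT1 and MTAP with guide 2 and NSD2 with guide 1 below 1.5-fold. MTAP with guide 2 was also lost with a minimum mean of 1 CPM, with the 6 libraries alone and without guide 2 replicate 2 (leave-one-out values 0.552 to 0.625), and NSD2 without shScramble replicate 2 or 3 or guide 1 replicate 2 (0.556 to 0.621). A minimum mean of 1 CPM turned MAT1A (-0.0167) and SUZ12 with guide 1 (-0.00475), and DESeq2 and its size factors turned TET3 with guide 1 (0.0132 and 0.00512). Leaving out single libraries turned MTF2 with guide 2 (-0.0965 to 0.00761), SUZ12 (-0.0228 to 0.0229), TET3 (-0.0821 to 0.0376), EZH1 (-0.0173 to 0.0333), EPOP (-0.0389 to 0.0938) and SUZ12P1 (-0.0462 to 0.077) with guide 1, and the log2 ratio of UHRF1 to DNMT1 between the guides (-0.0771 to 0.00416). Of 1424 alternative values of named genes, 1363 kept their side of the threshold and their direction. These values leave out adjusted p alone and glmTreat.

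Same-numbered libraries did not deviate together (correlations of -0.10 to 0.05), so the numbers were not taken as pairs. With a replicate block 5494, 7140 and 9027 genes were called, and the calls among the 10 genes stayed at 2, 4 and 3. Among the 10 genes TET1 had the fewest counts, 47 to 91 counts per library outside guide 1.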

Other observations

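Of 18 germline genes that DNA methylation is known to silence, 8 passed the filter, which a gene high in a single group could pass. With guide 2, 2 rose and 2 fell, beside 8.85% and 20.4% of all tested genes. With guide 1, 2 rose and 4 fell, beside 21.2% and 16.5%. The median log2 fold change was 0.39 with guide 2 and -0.63 with guide 1, or 0.34 and -0.89 with groups at 3 counts or fewer set to 3 counts per library.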
